A study of Arabidopsis thaliana with 12 samples.

Results

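A set of 604 transposons had more siRNA reads of the siR_24 table in dcl234 floral buds than in Col-0 floral buds, against the direction of most transposons. The members were chosen from those measured values: at least 1 RPM (reads scaled to each library's total of genome-matching reads) in both Col-0 bud libraries, both dcl234 libraries above both Col-0 bud libraries, and a dcl234 mean at least 1.5 times the Col-0 bud mean. They make up 4.74% of the 12733 transposons with at least 1 RPM in both Col-0 bud libraries, and 1.72% of the 35092 transposons listed. The siR_24 values of the members in dcl234 and Col-0 buds therefore describe how they were picked, and no test is given for the members between these groups in any table.

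The small RNA libraries came from 3 groups of 2 biological replicates: rosette and cauline leaves of wild-type Col-0, unopened floral buds of the same Col-0 plants, and unopened floral buds of dcl234 plants. The dcl234 plants are homozygous for dcl2-1, dcl3-1 and dcl4-2t in the Col-0 ecotype, and all plants were 4 to 6 weeks old. Each replicate was a separate pooled collection of tissue, so the spread between replicates is that between pools. The libraries held between 4062090 and 13755078 genome-matching reads. Leaf replicate 2 was the shallowest, with 1 read worth 0.246 RPM. A read was worth 0.114 RPM in leaf replicate 1 and 0.116 RPM in dcl234 replicate 2. The siR_21 and siR_24 tables are called here by their file names, because which read lengths each one holds could not be settled from the files. Summed over all transposons, the siR_21 table held 904450 and 1016060 RPM in Col-0 buds and 81864 and 80126 RPM in dcl234 buds, and the siR_24 table held 253574 and 282056 RPM against 220073 and 197695 RPM. It is thus the siR_21 table that fell steeply in a mutant lacking DCL3, the opposite of what the table names imply, and a gain in the siR_24 table cannot be read as a gain of the longer siRNAs that DCL3 makes. The floral marker AP3, a petal and stamen identity gene, followed the tissue labels in the mRNA libraries, at 0.13 and 0 TPM in leaves. It was at 30.1 and 58.4 TPM in Col-0 buds and at 81.3 and 110 TPM in dcl234 buds. The other listed bud markers (AG, PI, SEP3, AP1) and the leaf markers (RBCS1A, LHCB1.3, CAB2, RCA) were also higher in both dcl234 than in both Col-0 bud libraries. The cause was not tested.

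In Arabidopsis, transposons are silenced largely by RNA-directed DNA methylation. RNA polymerase IV and RDR2 make double-stranded RNA, DCL3 cuts it into siRNAs of the longer class, and AGO4 and its relatives use these to guide DNA methylation. DCL4 and DCL2 cut the shorter siRNAs from other double-stranded RNAs, many made by RDR6, and DCL1, which is intact in dcl234, mainly makes miRNAs. The study's methods describe dividing reads by the number of places they match, but the values of both siR tables are whole multiples of what 1 read is worth, as if each read had been counted in full at every copy. Copies that share sequence can therefore share reads and values, and are not treated here as independent measurements. Fewer cells with a given siRNA and less siRNA per cell cannot be told apart in these bulk tissues.

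Of the 604 members, 507 carry a transposon ID (such as AT3TE63215) and 97 a gene-style ID (such as AT3G43730). The gene-style members were all placed on the RefSeq TAIR10.1 annotation, where each is listed as a pseudogene, whereas the transposon IDs could not be placed. The sequences shown first belong to the largest group of gene-style members that share sequence, 16 in number, since one exact run of 58 bases lies in 8 of them and at no other place in the genome. The run is in capitals in the 5 of these 8 members with the highest dcl234 mean, each with 30 bases on either side, written 5′ to 3′ on the annotated strand.
AT5G27590 (chr5:9739839-9739956, minus strand): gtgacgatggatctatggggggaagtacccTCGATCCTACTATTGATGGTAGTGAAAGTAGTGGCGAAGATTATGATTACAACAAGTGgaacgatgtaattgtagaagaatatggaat
AT2G17460 (chr2:7582699-7582816, plus strand): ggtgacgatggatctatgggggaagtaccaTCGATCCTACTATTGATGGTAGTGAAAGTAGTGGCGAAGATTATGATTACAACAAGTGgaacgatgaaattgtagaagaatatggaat
AT5G03950 (chr5:1066657-1066774, plus strand): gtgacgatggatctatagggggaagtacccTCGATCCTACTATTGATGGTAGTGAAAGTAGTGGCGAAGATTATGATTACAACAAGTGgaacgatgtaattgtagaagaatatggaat
AT3G29777 (chr3:11659200-11659317, minus strand): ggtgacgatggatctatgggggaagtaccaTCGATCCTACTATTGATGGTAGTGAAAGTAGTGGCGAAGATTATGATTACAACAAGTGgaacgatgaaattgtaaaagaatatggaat
AT1G30980 (chr1:11050025-11050142, minus strand): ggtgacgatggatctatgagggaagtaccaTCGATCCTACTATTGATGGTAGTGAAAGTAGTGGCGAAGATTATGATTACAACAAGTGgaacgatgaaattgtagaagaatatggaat

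The following stretches show the first 200 bases of 3 gene-style members whose values are described next: AT3G43730, with the largest gain of the gene-style members, AT2G03650, with their highest ratio, and AT4G04293, whose own mRNA was detected.
AT3G43730 (chr3:15633913-15634112, plus strand): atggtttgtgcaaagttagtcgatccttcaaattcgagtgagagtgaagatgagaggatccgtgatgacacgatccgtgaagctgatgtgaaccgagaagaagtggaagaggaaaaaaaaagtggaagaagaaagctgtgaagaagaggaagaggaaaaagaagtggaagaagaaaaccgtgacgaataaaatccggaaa
AT2G03650 (chr2:1110212-1110411, minus strand): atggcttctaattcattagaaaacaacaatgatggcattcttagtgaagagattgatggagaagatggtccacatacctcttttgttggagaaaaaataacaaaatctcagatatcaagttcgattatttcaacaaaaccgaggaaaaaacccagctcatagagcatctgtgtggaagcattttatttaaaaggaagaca
AT4G04293 (chr4:2076832-2077031, plus strand): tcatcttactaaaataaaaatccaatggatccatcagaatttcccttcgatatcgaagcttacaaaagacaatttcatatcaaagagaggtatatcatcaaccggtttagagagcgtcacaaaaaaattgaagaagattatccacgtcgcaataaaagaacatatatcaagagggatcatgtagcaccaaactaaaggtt

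Over the members, the median siR_24 level was 4.76 and 5.05 RPM in the Col-0 bud libraries and 10.13 and 10.6 RPM in the dcl234 bud libraries. The median ratio of the dcl234 mean to the Col-0 bud mean was 2.01, against 0.714 over all 12733 transposons. Most transposons moved the other way: in 63% of the 12733 both dcl234 libraries lay below both Col-0 bud libraries, and in 9.4% they lay above. The ratio reached 2 in 305 members, 3 in 78 and 5 in 9. The gain was small for many of them, under 5 RPM in 290 members and at least 50 RPM in 41, and the 10 largest gains made up 20.9% of the summed gain. With counting error alone, the lower 95% bound of the ratio was above 1 in 584 members and at or above 1.5 in 342. These bounds pool the libraries of each group and come from the reads that chose the members. They are a description and no test. Just inside the threshold lay AT1TE40235, AT5TE48010 and AT3TE63110, with ratios of 1.503, 1.505 and 1.506, and just outside it AT3TE61895, AT4TE00085 and AT2TE08750, with ratios of 1.498, 1.497 and 1.497.

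The size of the gain depended on the unit. The relative spike-in factors were 1.34 and 1.16 for the dcl234 libraries and 1.00 and 0.996 for the Col-0 bud libraries. Scaling to the sRNA spike-ins could therefore only widen the gain that chose the members. All 604 members kept both dcl234 libraries above both Col-0 bud libraries, and the median ratio was 2.48. The summed miRNA reads were 46689 and 48918 RPM in Col-0 buds and 92194 and 98955 RPM in dcl234 buds. The study reported significantly more total miRNA in dcl234 than in Col-0 flowers, both in RPM and in spike-in units. The miRNA total is thus no constant reference between these genotypes. Scaled to the miRNA total, 136 members kept both dcl234 libraries above both Col-0 bud libraries, 104 had both below, and the median ratio was 1.00. How many of the 12733 transposons lay above or below with this scaling was not counted, so these counts have no background. The median ratio over all 12733 transposons was 0.898 with the spike-ins and 0.358 with the miRNA total.

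**Figure D1:**
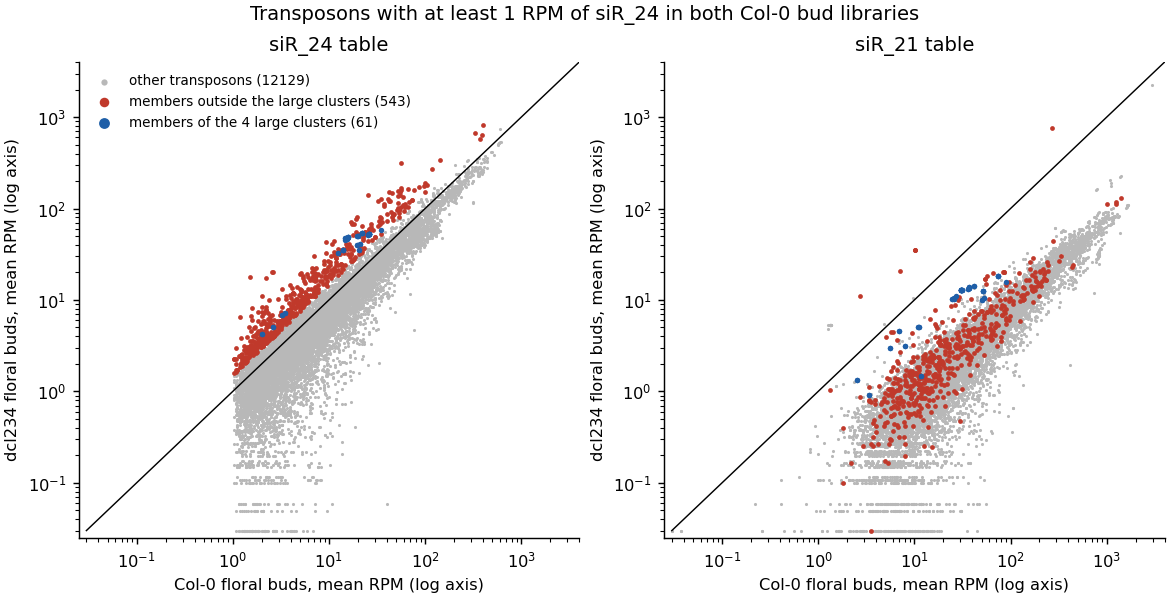
Mean RPM of each transposon in Col-0 floral buds (x) and dcl234 floral buds (y), both on log axes, in the siR_24 table (left) and the siR_21 table (right). The black line marks equal levels, grey points are the other 12129 transposons, red and blue points the 543 and 61 members outside and inside 4 large clusters on chromosome 5, and means under 0.03 RPM are drawn at the lower edge. The members lie above the line on the left because they were picked there, and nearly all lie below it on the right.

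The largest gain was that of AT3TE63215. Its siR_24 level was 382 and 419 RPM in the Col-0 bud libraries, 885 and 769 RPM in the dcl234 libraries and 18.6 and 49.7 RPM in leaves. The gene-style member AT3G43730, which spans 3030 bases (chr3:15633913-15636942), had siR_24 levels of 323 and 342 RPM in Col-0 buds, 726 and 625 RPM in dcl234 buds and 15.3 and 43.1 RPM in leaves. The groups did not overlap in either, and both profiles had the same order of groups, with leaves lowest and dcl234 buds highest. In the siR_21 table AT3G43730 had the opposite change, with 1191 and 1313 RPM in Col-0 buds against 129 and 106 RPM in dcl234 buds. Of its 24-base words, 89.3% occur at 1 place in the genome, so most of its sequence has no exact second copy of that length. Diverged copies and shorter matches were not counted. Transposon IDs could not be placed, so whether AT3TE63215 covers the same stretch and counts the same reads was not tested. AT5G28760 on chromosome 5, the member that shares sequence with it, had 26.5 and 30.5 RPM in Col-0 buds and 58.0 and 57.2 RPM in dcl234 buds in the siR_24 table.

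AT2TE37325 combined a large gain with a high ratio, at 56.5 and 56.6 RPM in Col-0 buds and 316 and 312 RPM in dcl234 buds, 5.55-fold, in the siR_24 table. Its leaf libraries differed from each other more than its bud libraries did, at 2.05 and 17.7 RPM. AT4TE22770 had a similar shape, with 24.01 and 26.5 RPM in Col-0 buds, 139 and 145 RPM in dcl234 buds and 1.252 and 5.66 RPM in leaves. In Col-0 buds the siR_21 level of both was the higher, at 276 and 270 RPM for AT2TE37325 and 163 and 172 RPM for AT4TE22770. In dcl234 buds it was the lower, at 47.0 and 42.0 RPM for AT2TE37325 and 19.1 and 18.3 RPM for AT4TE22770.

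The highest ratios belonged to members at low level. AT4TE24905 had 1.28 and 1.74 RPM in Col-0 buds and 18.6 and 17.1 RPM in dcl234 buds, a ratio of 11.8, from 41 reads in both Col-0 bud libraries and 336 in both dcl234 libraries (95% counting interval of the pooled ratio, 8.51 to 16.7). AT5TE44670, AT4TE24790 and AT4TE24715 followed with ratios of 7.86, 7.82 and 7.70. AT4TE24790 and AT4TE24715 had nearly equal values, 20.8 and 19.7 RPM against 20.9 and 19.6 RPM in dcl234 buds, and lie near AT4TE24905 in the order of IDs. Among gene-style members the highest ratio was 4.11, for AT2G03650 (chr2:1109237-1110411, minus strand), with 19.9 and 19.4 RPM in Col-0 buds and 82.3 and 79.5 RPM in dcl234 buds. Nearly all of its 24-base words, 99.9%, occur once in the genome.

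**Figure D2:**
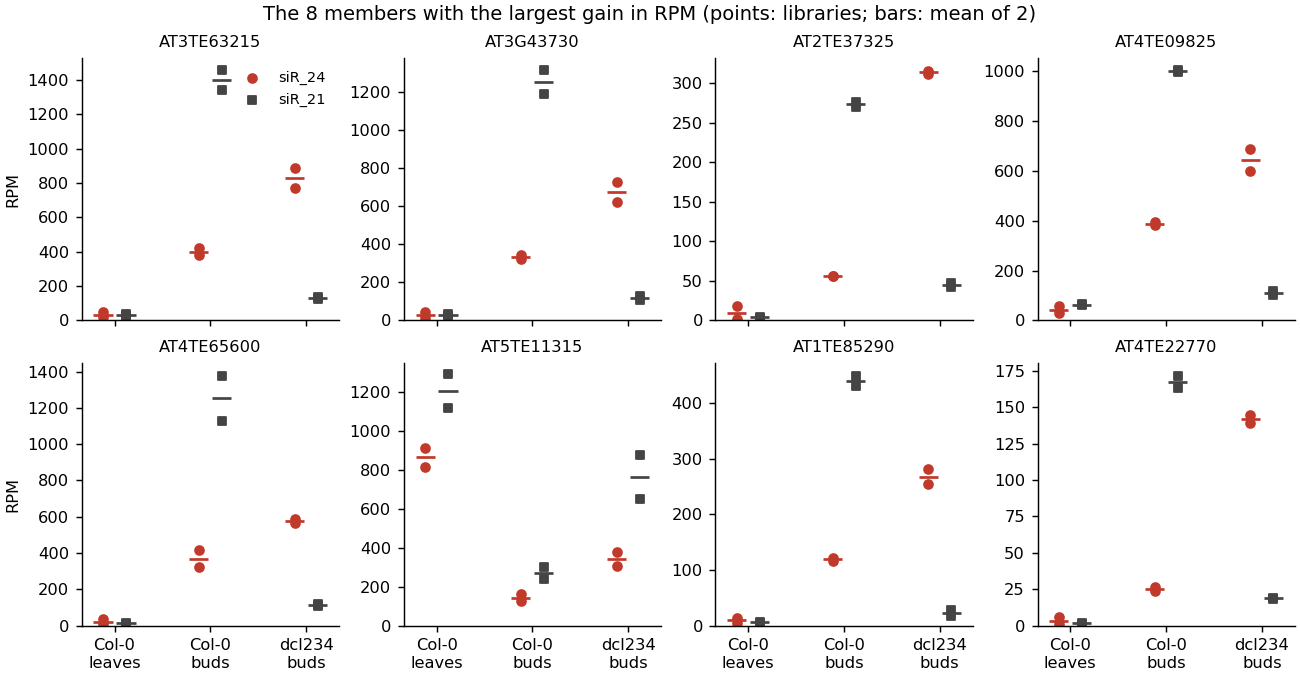
Level in RPM (y) of the 8 members with the largest gain, by group (x), with circles for the siR_24 table, squares for the siR_21 table, 1 point per library and a bar at the mean of 2 libraries. In 7 of the 8 the siR_24 level is highest and the siR_21 level low in dcl234 buds, and leaves are lowest. AT5TE11315 is highest in leaves in both tables, at 915 and 818 RPM in the siR_24 table.

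The siR_21 table did not show the gain. Over the members its median level was 18.4 and 19.4 RPM in Col-0 buds and 2.56 and 2.44 RPM in dcl234 buds. The median ratio was 0.114, or 8.74-fold lower in dcl234, against 0.0812, or 12.3-fold lower, over all 12733 transposons. Both dcl234 libraries lay below both Col-0 bud libraries in 597 members, beside 99.7% of the 12733. Over both tables together, 83 members had a higher mean in dcl234, beside 106 of the 12733, these members included. The median member was 1.92-fold lower, against 4.37-fold over all 12733. These sums include the siR_24 values that chose the members, so they partly describe that choice.

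The proportion of the tables changed with the genotype. In Col-0 buds the median siR_24 to siR_21 ratio of the members was 0.267, close to the 0.280 of all 12733 transposons, and the siR_24 level was the higher in 16 members. In dcl234 buds the median ratio was 4.67 against 2.33. There the siR_24 level was the higher in 593 members (98.2%), beside 93.2% of the 12733. The siR_24 level in dcl234 buds was used by the rule, so these values partly describe how the members were picked. In leaves the median was 0.461 against 0.273.

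In 6 members both tables were higher in dcl234, and these are the only 6 of the 12733 transposons in which both dcl234 libraries lay above both Col-0 bud libraries in the siR_21 table (0.0471%). AT5TE11315 was by far the most abundant of them. Its siR_21 level was 240 and 299 RPM in Col-0 buds, 648 and 878 RPM in dcl234 buds and 1291 and 1121 RPM in leaves. In the siR_24 table it was at 125 and 161 RPM in Col-0 buds and 308 and 379 RPM in dcl234 buds, so both tables rank its groups in the same order, with Col-0 buds lowest. The others were AT1TE93285, AT2TE51180, AT3TE80920, AT5TE16185 and AT5TE70675. AT2TE51180, AT3TE80920 and AT5TE16185, on different chromosomes, had equal siR_21 values in all 6 libraries after rounding (9.74 and 10.3 RPM in Col-0 buds, 34.3 and 36.1 RPM in dcl234 buds) and nearly equal siR_24 values, and whether they count the same reads was not tested. AT1TE93285 had 7.02 and 7.27 RPM in Col-0 buds against 15.9 and 25.96 RPM in dcl234 buds, and AT5TE70675 3.32 and 2.11 RPM against 10.3 and 11.9 RPM.

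Leaves were not used by the rule, although the Col-0 bud libraries they are compared with were. In the siR_24 table, limma on log2(RPM + 1) over all 6 libraries called 422 of the 604 members lower and 9 higher in leaves than in Col-0 buds at an adjusted p under 0.05. Among the 12733 transposons 69.3% were called lower, a share close to that of the members, and 0.62%, or 79, were called higher, a smaller share than the 9 of 604. Among all 13335 tested the shares were 67.9% and 0.93%. The size differed more than the count: the median leaf to Col-0 bud ratio was 0.155, or 6.43-fold lower in leaves, against 0.395, or 2.53-fold, over the 12733. Both leaf libraries lay below both Col-0 bud libraries in 456 members, beside 80.9% of the 12733, and above them in 76, beside 3.31%, of which 43 belong to 4 large clusters on chromosome 5. Both leaf libraries were at 0 in 34 members. For siR_21, 463 members were called lower and 2 higher, beside 75.5% and 0.622% (72.4% and 1.03% of all 17472 tested), and the median fall was 9.87-fold against 2.40-fold. Fitted on the 4 leaf and Col-0 bud libraries alone, the count of higher members in the siR_24 table was 38 instead of 9, beside 100 of the 12733 instead of 79. Scaling moved the calls as well: the median leaf to Col-0 bud ratio of all 12733 transposons was 0.129 with the sRNA spike-ins. There 594 members were called lower and 2 higher, beside 12655 and 8 of the 12733. With edgeR, whose TMM scaling centres the median transposon, 318 members were called lower and 132 higher, beside 3884 and 2982 of the 12733.

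AT4TE65600 fell most steeply of the 8 largest gains, from 322 and 416 RPM in Col-0 buds to 7.97 and 34.2 RPM in leaves (log2 difference -4.37, standard error 0.42, limma adjusted p = 9.5e-07). AT3G43730 fell by 3.64 on the log2 scale (standard error 0.32, limma adjusted p = 3.77e-07) and AT3TE63215 fell by 3.67 (standard error 0.30, limma adjusted p = 2.48e-07). All 3 stayed called in each of 16 alternatives. The leaf replicates of the members outside the chromosome 5 clusters were not equal, with a median siR_24 level of 0.569 and 1.23 RPM, while in the siR_21 table they were at 1.82 and 1.72 RPM.

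Higher in leaves were AT5TE11315, AT4G08340, AT2TE07840, AT2TE00155 and AT5TE45525, besides 4 members of the chromosome 5 clusters. The ID of AT5TE45525 lies between those clusters. AT5TE11315 had a log2 difference of 2.60 in the siR_24 table (standard error 0.16, limma adjusted p = 2.25e-08) and of 2.16 in the siR_21 table (standard error 0.16, limma adjusted p = 1.82e-07), and the siR_24 call held in each of 16 alternatives. AT4G08340 was at 70.4 and 67.9 RPM in leaves, 8.46 and 9.45 RPM in Col-0 buds and 13.9 and 28.3 RPM in dcl234 buds, with a log2 difference of 2.82 (standard error 0.25, limma adjusted p = 5.34e-07) that held in each of 16 alternatives. Its siR_21 level was not higher in leaves, at 16.3 and 25.8 RPM against 31.6 and 26.2 RPM in Col-0 buds. This gene-style member spans 6934 bases (chr4:5264215-5271148) and the annotation places a tRNA gene, AT4G08345, inside it on the same strand. The share of its reads that fall on the tRNA was not tested. AT2TE07840 and AT2TE00155, at low level, turned lower in leaves with the spike-in scaling.

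**Figure D3:**
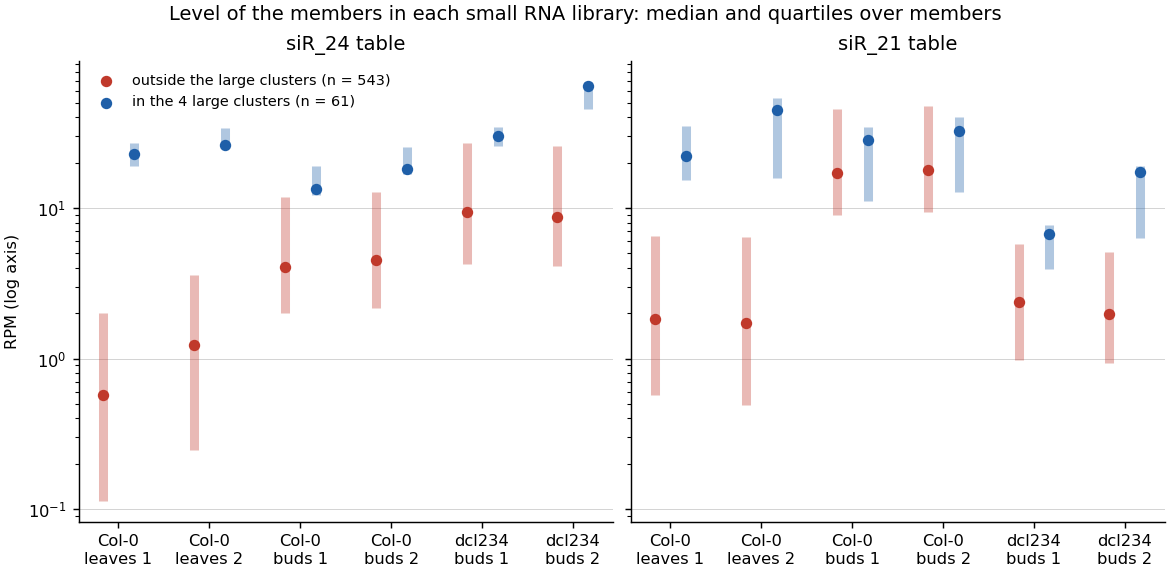
Level in RPM (y, log axis) of the members in each of the 6 small RNA libraries (x), in the siR_24 table (left) and the siR_21 table (right), with the median as a point and the quartiles as a bar, for the 543 members outside the 4 large clusters on chromosome 5 (red) and the 61 inside them (blue). Outside the clusters the median siR_24 level is 0.569 and 1.23 RPM in leaves and 9.35 and 8.73 RPM in dcl234 buds. Inside them the siR_24 medians of leaves lie above those of Col-0 buds, whereas in the siR_21 table leaf replicate 1 lies below both Col-0 bud libraries.

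Members were found on all chromosomes, 131, 115, 103, 107 and 148 on chromosomes 1 to 5, which is between 3.75% (chromosome 3) and 5.53% (chromosome 5) of the transposons with at least 1 RPM there. Chromosome 5 leads through 4 large clusters alone, since outside them 3.32% of its transposons were members. When members at most 3 places apart in the order of IDs were joined, 279 members (46.2%) had a neighbour, in 94 clusters, and 325 stood alone. Of the more numerous transposons with at least 1 RPM, 91.9% had another of them that near. The clusters depend on this distance: at most 10 places apart, 59.1% of members had a neighbour and the largest cluster held 65. Of these clusters, 90 held between 2 and 7 members. The longest of the small clusters, 7 members between AT1TE40560 and AT1TE40605 on chromosome 1, had ratios between 2.27 and 3.89 and median siR_24 levels of 6.95 and 6.98 RPM in Col-0 buds and 15.1 and 17.2 RPM in dcl234 buds.

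**Figure D4:**
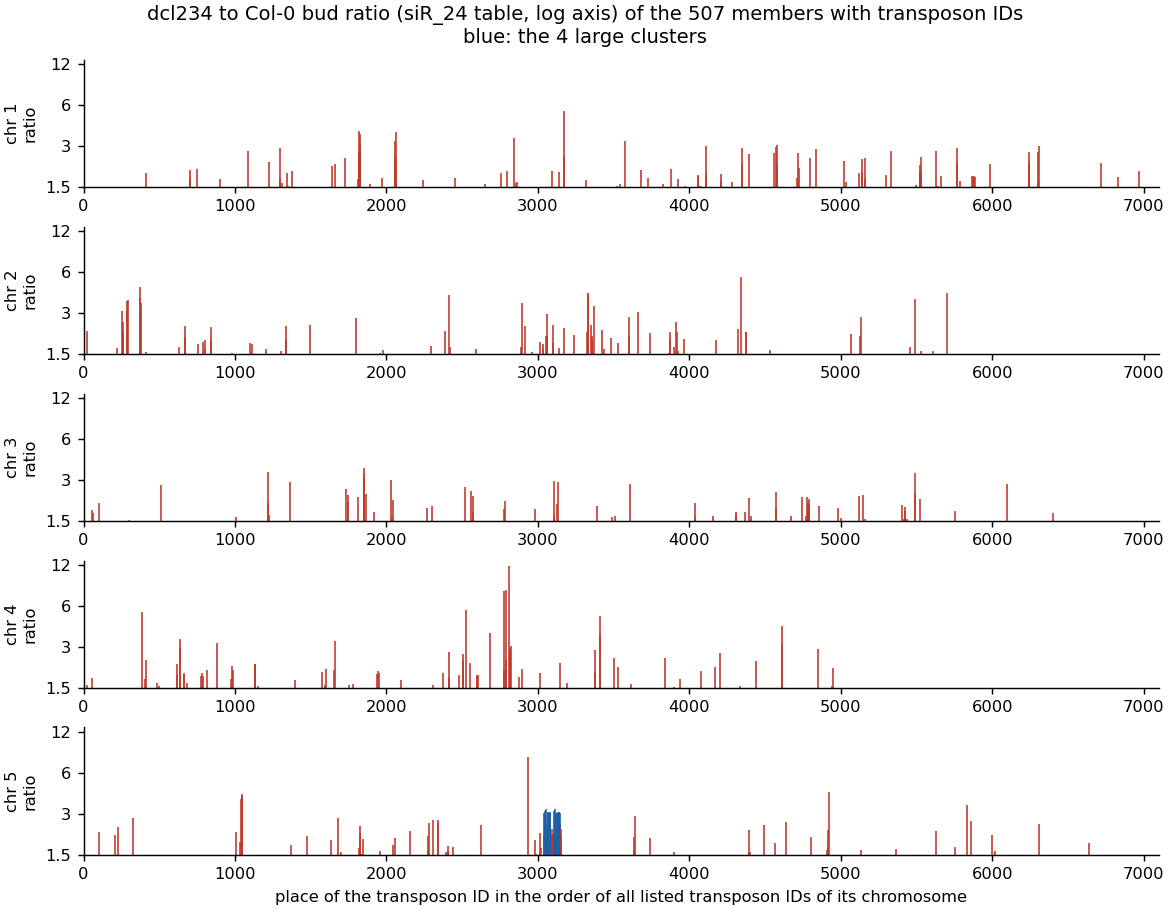
Ratio of the dcl234 to the Col-0 bud mean in the siR_24 table (y, log axis from 1.5) of the 507 members with transposon IDs, by the place of the ID among all listed transposon IDs of the chromosome (x), 1 panel per chromosome. Red lines are scattered over all 5 chromosomes, and the blue lines are the 4 large clusters on chromosome 5, whose ratios lie between 1.68 and 3.26. The highest line, 11.8, is AT4TE24905 on chromosome 4.

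The 4 large clusters, of 18, 18, 13 and 12 members, lie between AT5TE45255 and AT5TE45805 and hold 61 of the 604 members. Many of their values repeat: the 61 members have 27 distinct profiles over the 12 siRNA libraries and tables, and of the 17 members of the first large cluster that have a member 330 ID numbers further on, 15 match it in every value. In the siR_24 table their median was 22.8 and 26.1 RPM in leaves, 13.4 and 18.1 RPM in Col-0 buds and 30.1 and 64.8 RPM in dcl234 buds. The dcl234 replicates thus differed 2.04-fold in the median member, whereas over all members that ratio was 0.946. Leaves were above Col-0 buds in the mean of all 61, 1.43-fold in the median member, which among the other 543 members held for 58. The limma test called 4 of the 61 higher in leaves and 0 lower, beside 79 higher and 8826 lower of the 12733 transposons. On the 4 leaf and Col-0 bud libraries alone it called 31 of the 61 higher, beside 100 of the 12733. Scaled to the sRNA spike-ins it called 59 lower, beside 12655 of the 12733 transposons, so the direction of this difference depends on the scaling. In the siR_21 table the median of the 61 was 22.3 and 44.6 RPM in leaves, 28.4 and 32.3 RPM in Col-0 buds and 6.69 and 17.3 RPM in dcl234 buds. That is 2.51-fold lower in dcl234, a smaller fall than the 9.35-fold of the members outside the clusters. A typical member is AT5TE45365, with siR_24 levels of 12.8 and 18.1 RPM in Col-0 buds and 30.1 and 64.8 RPM in dcl234 buds, the same as AT5TE45695.

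Over all 604 members, those in the clusters included, 81 matched another member in all 12 values, and there were 558 distinct profiles. When members whose siR_24 values lay within 5% or 0.3 RPM in every library were joined, 513 remained. A gene-style and a transposon ID can also have equal values. AT1G34230 and AT1TE40560 both had siR_24 means of 0.54 RPM in leaves and 5.17 RPM in Col-0 buds. The count of members is therefore larger than the count of separate siRNA sources by an amount that these files do not settle.

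The gene-style members were shorter and had less G + C than other gene-style transposons, features that the rule did not use. Their annotated length had a median of 1068 bases (quartiles 716 and 2441), against 2493 bases (1309 and 3998) for the 2810 gene-style transposons with at least 1 RPM that were not members. Their median G + C was 37.7% (35.5% and 40.3%) against 42.0% (39.1% and 45.1%). In 72.2% of them most 24-base words occur once in the genome, against 52.8% of the others. Members were rarer among gene-style IDs, 3.34% of 2907, than among transposon IDs, 5.16% of 9826. These are descriptions without a test, since related copies are not independent.

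**Figure D5:**
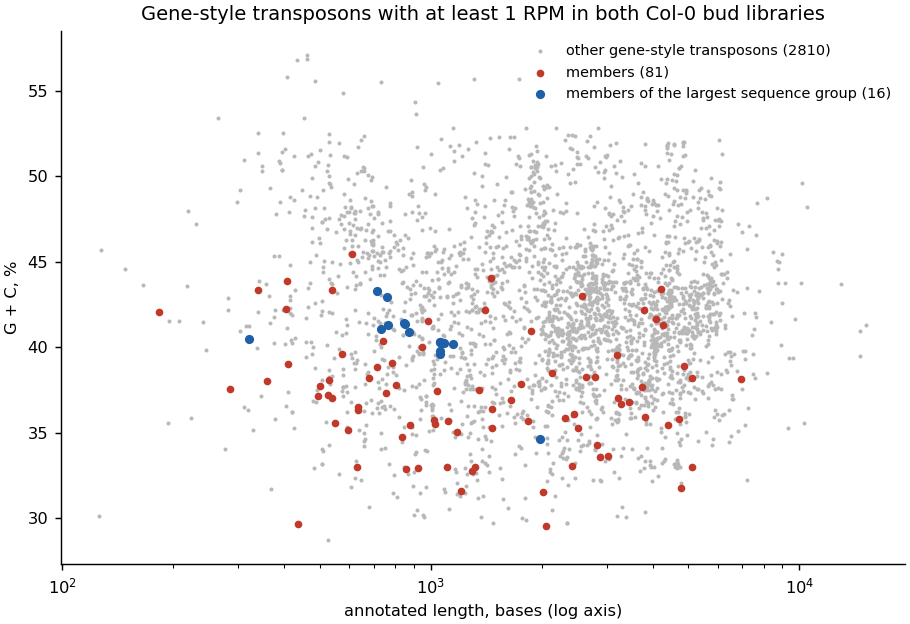
Annotated length in bases (x, log axis) and G + C in percent (y) of gene-style transposons with at least 1 RPM in both Col-0 bud libraries, from RefSeq TAIR10.1, with grey for 2810 transposons that are not members, red for 81 members and blue for the 16 members of the largest sequence group. The members lie towards short length and low G + C, and the group clusters near 963.5 bases and 40.4% (its medians).

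By shared 24-base words (at least 20), 38 of the 97 gene-style members fell into 10 sequence groups and 59 into none. The largest group, of 16, is spread over chromosomes 1, 2, 3 and 5 and includes AT5G27590, AT5G44313, AT1G30980, AT2G17460 and AT5G03950, of which 4 carry the run printed above. Its siR_24 levels ranged from 31.3 to 99.2 RPM in the Col-0 bud libraries and from 60.2 to 156 RPM in the dcl234 libraries, and its ratios from 1.52 to 2.11, a narrow range beside the 11.8 that the members reached. Highest was AT5G27590 (chr5:9738492-9740473, minus strand, 1982 bases), at 99.1 and 99.2 RPM in Col-0 buds, 156 and 145 RPM in dcl234 buds and 25.7 and 29.8 RPM in leaves. It fell by 1.80 on the log2 scale in leaves (standard error 0.15, limma adjusted p = 2.21e-07). The miRNA family miR831 had values within 10% of it in the 4 bud libraries and 3.76 and 10.3 RPM in leaves. The annotated MIR831 gene shares no 24-base word with the group. Such words are longer than a mature miRNA, so they cannot show whether a sequence of that length is shared. Whether AT5G27590 and miR831 count the same reads was not tested.

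Not every relative of this group was a member. Another 13 gene-style transposons share at least 20 of its 24-base words, all with at least 1 RPM in both Col-0 bud libraries, and their ratios ran from 0.757 to 1.38 with a median of 0.828. The closest of them, AT4G04495, shares 424 such words and had 45.0 and 43.0 RPM in Col-0 buds and 65.0 and 56.2 RPM in dcl234 buds, above but short of 1.5-fold.

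Most gene-style members had no reads in the mRNA libraries of the same 3 groups, as did most gene-style transposons. Of the 97, 72 (74.2%) were at 0 TPM (reads scaled to transcript length and library depth) in all 6 libraries, beside 67.4% of the 2907 gene-style transposons. In 5 both dcl234 libraries lay above both Col-0 bud libraries, 5.15% of the members beside 2.41% of the 2907. AT4G04293 (chr4:2076832-2077361, 530 bases) was the one with the highest level. Its mRNA was at 0.29 and 0.29 TPM in Col-0 buds, 4.05 and 5.69 TPM in dcl234 buds and 13.5 and 20.5 TPM in leaves, and the 3 groups did not overlap. The leaf level was higher than that of Col-0 buds (log2 difference 3.78, standard error 0.32, limma adjusted p = 5.24e-07), as was that of 12.1% of the genes tested. In the siR_24 table it was at 56.5 and 55.5 RPM in Col-0 buds, 172 and 165 RPM in dcl234 buds and 2.73 and 11.3 RPM in leaves. Leaves thus had the most of its mRNA and the fewest of its siR_24 reads, while dcl234 buds had more of both than Col-0 buds. Its siR_21 level went the other way between the genotypes, from 168 and 175 RPM in Col-0 buds to 27.1 and 29.9 RPM in dcl234 buds. AT3G43730 was at 0 TPM in leaves and Col-0 buds and at 0.20 and 0.14 TPM in dcl234 buds.

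The genes of the pathway itself were compared between dcl234 and Col-0 buds in the same mRNA libraries. Of 22 listed genes, 20 had a mean of at least 1 TPM, and limma on log2(TPM + 1) called 1 lower and 0 higher, beside 0.503% lower and 1.41% higher of the 19698 genes tested. The one called was DCL3, the dicer of the longer siRNAs, at 3.85 and 4.30 TPM in Col-0 buds and 0.40 and 0.37 TPM in dcl234 buds (log2 fold change -1.87, standard error 0.35, limma adjusted p = 0.0125). Its adjusted p ranged from 7.23e-07 to 0.237 over 10 alternatives. The median gene was 0.50 higher on the log2 scale in dcl234 buds, and the median of the 20 was 0.29. The other mutated dicers did not pass the test: Col-0 buds had 2.07 and 3.26 TPM of DCL2 against 1.04 and 1.60 TPM in the mutant (limma adjusted p = 0.255), and 3.20 and 4.51 TPM of DCL4 against 3.12 and 2.87 TPM (limma adjusted p = 0.514). Transcript level alone does not show whether an insertion allele is functional. The other listed genes did not pass the test either, with DCL1, the miRNA dicer, at 2.13 and 3.01 TPM in Col-0 buds and 3.42 and 2.90 TPM in dcl234 buds. RDR6, an RNA-dependent RNA polymerase, was at 2.50 and 4.45 TPM against 4.62 and 4.81 TPM, and AGO4, which binds the longer siRNAs, at 13.6 and 22.1 TPM against 24.2 and 24.98 TPM.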

How the data were processed

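The authors deposited 6 sRNA-Seq tables of each kind and 1 mRNA-Seq table. Per the study's methods, single-end reads of 50 bases were trimmed and aligned to TAIR10 with Bowtie, allowing 0 mismatches and up to 100 places, reads were divided by their number of matches, and those on annotated transposons were summed. The whole-read steps of the siR tables do not show that division. The deposited siRNA values are RPM (reads scaled to the library's genome-matching total), and the deposited mRNA values are TPM.

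An ID absent from a library was set to 0 RPM. Whole reads were recovered from the RPM steps (99.99% of siR_24 values within 0.02 read of a whole number), which gave between 4062090 and 13755078 reads per library. Intervals and read counts cover counting error only, and come from the values that chose the members. Leaves and Col-0 buds were compared with limma 3.58.1 (mean-variance trend, log2(RPM + 1), at least 1 RPM in both libraries of a group, all 6 libraries, Benjamini-Hochberg), and mRNA with limma on log2(TPM + 1) for genes averaging 1 TPM or more. edgeR 4.0.16 and DESeq2 1.42.0 on recovered reads were alternatives, as were other pseudocounts, filters and scalings, a replicate block and each library left out. Per the study's methods leaves and Col-0 buds came from the same plants, but whether the numbers pair them is not stated.

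Gene-style IDs were placed on RefSeq TAIR10.1, which also supplied the printed sequences. Words of 24 bases were compared on both strands. The members and the gene lists were chosen with earlier results of these data known. Members were named by ratio (8), gain (8), leaf level, siR_21 level in dcl234 (4 each), the 3 largest clusters, the 10 gene-style members with the highest dcl234 mean and the threshold (3 on each side). AT2G03650, the 6 members with higher siR_21, those called higher in leaves, AT5G28760, AT4G04495 and the sequence groups were picked after their values were seen.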

Additional observations from a re-analysis of the deposited data

How the results depend on the processing

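The number of members follows its thresholds: it was 280 with a minimum of 5 RPM, 970 with the lower fold tried and 305 with a fold of 2. It was 68 with the miRNA scaling (57 of them among the 604) and 1193 with the sRNA spike-ins, and between 643 and 812 when each bud library was left out. The median siR_24 ratio was 1.00 with the miRNA scaling and 2.48 with the spike-ins, and between 1.95 and 2.17 with a library left out. The median siR_21 ratio was 0.0574 and 0.144 with these scalings (0.105 to 0.119 with a library left out). The median siR_24 to siR_21 ratio in Col-0 buds was 0.270 with 0.1 RPM added, 0.254 without the 4 large clusters, an alternative chosen after seeing the data, and between 0.263 and 0.266 with a library left out. The causes were not tested.

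Members called lower in leaves in the siR_24 table numbered 263 with DESeq2. Those called higher numbered 3 with no filter, 4 of 420 tested with a filter of 5 RPM, and 38 with the 4 libraries of the contrast. Beside them stood 41 of the 12733 transposons, 55 of the 7398 tested, and 100. Higher members numbered 132 with edgeR, 126 with DESeq2 and 5 without the large clusters. They numbered 2 with the miRNA scaling and 2 with the spike-ins, beside 20 and 8 of the 12733. Of the 12733 transposons, DESeq2 called 3175 lower and 2470 higher, and edgeR 3884 lower and 2982 higher. With a library left out they numbered between 2 (without Col-0 floral buds replicate 1) and 39 (without Col-0 leaves replicate 1), with 36 and 34 without dcl234 floral buds replicate 1 and 2. Same-numbered leaf and Col-0 bud libraries did not deviate together (correlations of 0.026 in the siR_24 and -0.014 in the siR_21 table), so their numbers were not taken as a pairing. The replicate block gave 40 members called higher, and 46 with only the 4 libraries of the contrast, a fit added after seeing the data. Beside them stood 108 and 119 of the 12733 transposons. In the siR_21 table the higher members numbered 1 with the lower pseudocount, 1 with the miRNA scaling, 0 with the spike-ins and 1 with the block and 4 libraries. Among the 12733 transposons these fits called 32, 11, 2 and 62 higher. With edgeR 125 members were called higher, and with DESeq2 103. Of the 12703 of the 12733 transposons tested in the siR_21 table, 3849 were called higher with edgeR and 3888 with DESeq2. In the large clusters the block called 31 higher in the siR_24 table in place of 4.

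With the spike-ins, AT1TE93285 (siR_21) reversed to -0.76, AT2TE00155 (siR_24) to -0.27 and AT2TE07840 (siR_24) to -0.22 on the log2 scale. No pathway gene was called (0) with a pseudocount of 0.1 TPM, no filter or a filter of 5 TPM, and between 0 and 1 with a library left out. DCL3 kept its fall, at -3.10 with that pseudocount, -1.87 with no filter and between -1.94 and -1.81 with a library left out, and was not tested under the 5 TPM filter.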

Other observations

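In 16 members the siR_24 level exceeded the siR_21 level already in Col-0 buds, 2.65% of the members beside 0.919% of the 12733 transposons, and 8 of the 16 belong to the large clusters on chromosome 5. Among the rest, AT3TE65465 was at 20.99 and 24.9 RPM in the siR_24 table and 9.51 and 9.60 RPM in the siR_21 table in Col-0 buds, and at 55.7 and 50.6 RPM and 0.89 and 0.93 RPM in dcl234 buds. AT2TE15545 was at 9.59 and 12.8 RPM in the siR_24 table and 1.81 and 1.82 RPM in the siR_21 table in Col-0 buds. AT1G46120 (chr1:17203685-17207422) had siR_24 levels of 94.4 and 84.7 RPM in leaves, 87.7 and 113 RPM in Col-0 buds and 195 and 181 RPM in dcl234 buds, so that leaves and Col-0 buds overlapped. These members were chosen after their values were seen.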
